A study of Rattus norvegicus with 4 samples.

Results

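The genes described here encode the translation initiation factors eIF1, eIF1A, eIF2, eIF2A, eIF2B, eIF2D, eIF3, eIF5, eIF5A, eIF5B and eIF6 and the elongation factors eEF1 and eEF2, with a few enzymes that act on them. They were taken as every gene name in the array files that began with Eif1, Eif2, Eif3, Eif5, Eif6, Eef1 or Eef2, leaving out the eIF2 kinases, provided that a probe stood well above background on 2 or more of the 4 arrays. This gave 43 genes out of 30363 gene names that passed the same filter. The rule uses gene names and detection, and it was drawn up with earlier results of these data known. The 43 genes had 60 probes, all of them well above background on all 4 arrays, so that the filter removed none. A gene was represented by its brightest probe, 30 genes had 1 probe, and 13 had more.

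The arrays compared cortical neurons of Sprague Dawley rats, prepared from E18.5 embryos of both sexes. At day 2 in vitro the cultures received a lentivirus expressing either an shRNA against Cmtr1 (shCM1, 2 arrays) or a control shRNA (shCTL, 2 arrays). Both were harvested at day 7 in vitro, in 2 independent experiments per the series' design, and total RNA was labelled with Cy3 for single-colour Agilent arrays. CMTR1 adds a methyl group to the ribose of the nucleotide next to the mRNA cap, and the series asked how gene expression differs in neurons that lack it. The sources used here do not give the shRNA sequences. What follows from loss of CMTR1 and what the shRNA does elsewhere cannot be told apart.

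Translation begins when eIF2 brings the initiator tRNA to the small ribosomal subunit, where eIF3, eIF1 and eIF1A help it to bind mRNA and to find the start codon. eIF5 then triggers GTP hydrolysis by eIF2, eIF5B joins the large subunit, and eIF2B reloads eIF2 with GTP. During elongation eEF1A delivers aminoacyl-tRNA, the eEF1B complex reloads eEF1A, and eEF2 moves the ribosome by a codon. In neurons these steps are known points of control of local protein synthesis at synapses, among them phosphorylation of eIF2 and of eEF2.

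Levels are log2 signals relative to the 75th percentile of their array, which is set at 0, and differences are shCM1 minus shCTL. Cmtr1 itself had levels of -3.46 and -3.53 in the shCM1 arrays, against -1.43 and -1.86 in the shCTL arrays, and its mean was 27.7% of control. Its mean difference was -1.85 (SE 0.22). It was -1.22 with normexp background correction and -1.98 in the authors' table, so the size of the knockdown depends on the processing. Replicate 1 of both groups lay on slide 1 and replicate 2 of both on slide 2. Across genes, arrays of the same slide deviated from their group means with a correlation of 0.713. Each difference is therefore given within each slide as well, and limma was run in 2 forms, one that ignored the slide and one that took it as a block. An SE beside a difference is that of the form without the block, unless stated. Without the block 0 of 30363 genes passed an adjusted p of 0.05 (0.0%), and 910 had an unadjusted p under 0.05. With the block 925 genes were called lower in shCM1 (3.05%) and 1123 higher (3.70%). The prior of the blocked fit held 18.7 degrees of freedom, so that its p rests largely on the spread of other genes of like signal. Nothing in the labels says whether the cultures of an experiment came from separate animals.

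Most of the translation factor genes had slightly lower levels in the shCM1 arrays, and 2 of the 43, Eef2 and Eif3l, were called lower in the slide-blocked test, which called 3.05% of all genes lower and 7.3% of those with a mean level above 0. A count of 2 is near that background. Within both slides 29 of the 43 were lower and 2 were higher (Eif1 and Eif5a2), while the slides disagreed for 12. Among all genes 22.6% were lower within both slides and 44.0% higher. The median difference of the 43 genes was -0.13 (-0.10 on slide 1 and -0.14 on slide 2), against 0.08 over all genes. In the blocked fit 8 of the 43 were lower at an unadjusted p under 0.05, against 7.81% of all genes. Among genes with a mean level above 0 the counts were 7 of 38 translation factor genes and 1550 of all 8611, a like share. For 16 genes both shCM1 arrays lay below both shCTL arrays, as they did for 10.1% of all genes, and for 1, Eif1, both lay above, as for 21.6% of all genes. In these bulk cultures, fewer cells of a type and less RNA per cell cannot be told apart.

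Signal strength moved with the differences. Across all genes the median difference was 0.20 for levels of -2 or below and -0.06 for levels above 4, and 38 of the 43 translation factor genes had a mean level above 0, against 28.4% of all genes. Their mean levels ran from -3.29 (Eef2kmt) to 7.32 (Eef1g), with a median of 1.90, against -2.20 over all genes. These levels describe the signal of a probe and do not rank the genes by amount of RNA. The 8611 genes with a level above 0 had a median difference of -0.04, and 43.1% of them were lower within both slides. Against that background 27 of the 38 brighter translation factor genes (71.1%) were lower within both slides, with a median of -0.13. Both shCM1 arrays lay below both shCTL arrays for 16 of the 38, against 20.9% of the genes with a level above 0, and 2 of the 38 were called lower in the blocked fit, against 7.3%. Of the 13 brightest, with levels above 4, the median was -0.15, against -0.06 for the 1439 genes in that range. The part of signal strength in the counts was not tested beyond this comparison, and genes that share arrays are not independent replicates.

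**Figure D1:**
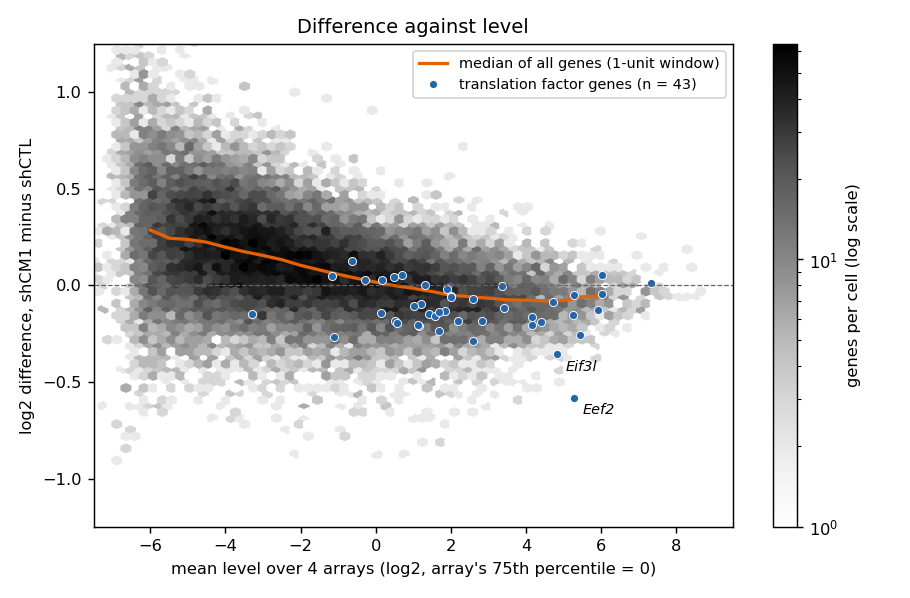
Log2 difference (shCM1 minus shCTL) against mean level over the 4 arrays (log2, the array's 75th percentile at 0). Grey cells count those of the 30363 genes that lie within the plotted range, and genes with larger differences are not drawn. The orange line is the running median of all genes, and blue points are the 43 translation factor genes. The running median passes from above 0 for dim genes to below 0 for bright ones, most blue points lie below it, and Eef2 and Eif3l lie lowest.

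The scaling of the arrays moved the size of this shift. After quantile normalization the median of the 43 genes was -0.08, against 0.01 over all genes, so that the gap to all genes was smaller than that between -0.13 and 0.08 above. There 24 of the 43 were lower and 5 higher within both slides, against 30.1% and 31.5% of all genes and 33.0% and 34.2% of those with a level above 0. Cyclic loess gave -0.08 with 25 lower, and the authors' table -0.08 with 24 lower. The all-gene median was 0.01 under both, with 30.0% of all genes lower. Of those with a level above 0, 33.1% were lower with cyclic loess and 33.0% in the authors' table. Normexp background correction gave -0.11 with 28 lower, against a median of 0.06 and 21.7% lower over all genes. Of the genes with a level above 0, 46.1% were lower with normexp. Of the 43 genes the blocked fit called 1 lower with quantile normalization (1.91% of all genes), 1 with cyclic loess (1.54%), 3 with normexp (2.62%) and 1 in the authors' table (1.45%). The median also moved with single arrays, to -0.05 without shCM1 replicate 2 and to -0.07 without shCTL replicate 1. Leaving out both genes that passed the blocked test changed little, as 27 of the other 41 were lower within both slides with a median of -0.13.

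**Figure D2:**
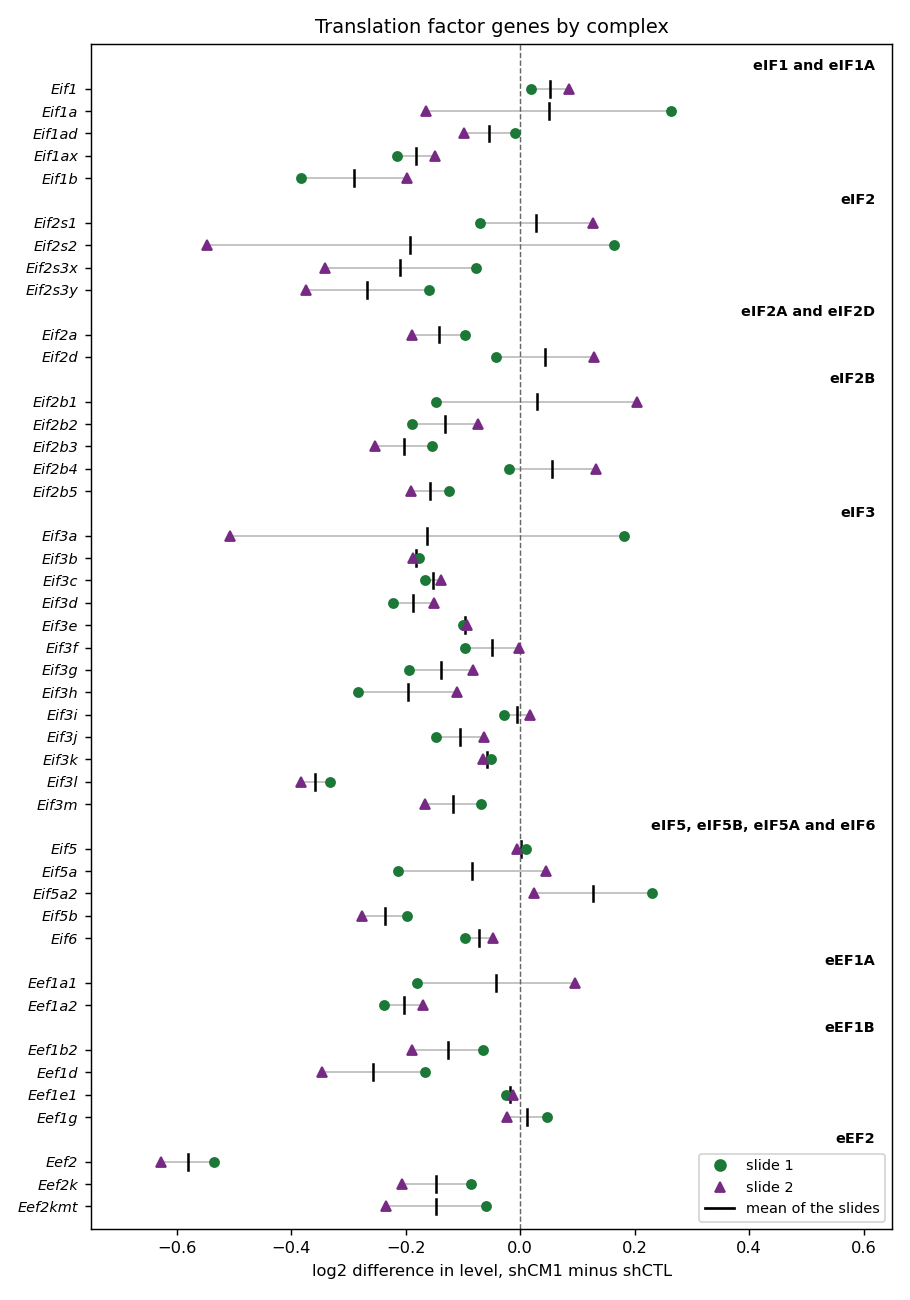
Log2 differences (shCM1 minus shCTL) of the 43 translation factor genes within slide 1 (circles) and slide 2 (triangles), with the mean of the slides as a bar, grouped by complex. Most bars lie left of 0. Eef2 lies farthest left on both slides, and Eif2s2 and Eif3a have their slides on opposite sides of 0.

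eEF2 is the GTPase that moves the ribosome along the mRNA, and its gene Eef2 had the largest difference of the group. Its levels were 5.14 and 4.83 in the shCM1 arrays, against 5.67 and 5.46 in the shCTL arrays. Both shCM1 arrays lay below both shCTL arrays, by differences of -0.53 on slide 1 and -0.63 on slide 2. The mean difference was -0.58 (SE 0.16, n = 2 arrays per group), which puts Eef2 at 66.9% of control. Without a block limma gave Eef2 an adjusted p of 1 (unadjusted p = 0.0148), and with the slide as a block 7.41e-05. Eef2 passed the blocked limma test under each of the 4 other scalings, with differences from -0.64 (normexp, adjusted p = 2.47e-04) to -0.46 (the authors' table, adjusted p = 0.00749). Leaving the intensity trend out of the blocked limma fit raised its adjusted p to 0.254. That fit called 0 of all 30363 genes in either direction, with 1121 lower and 3981 higher at an unadjusted p under 0.05.

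The Eef2 signal rests on 1 probe of 60 bases, which the files place on build rn4 at chr7:10018036-10018179 on the minus strand. That span is longer than the probe. The probe is shown because the largest difference of the group depends on it.
Eef2: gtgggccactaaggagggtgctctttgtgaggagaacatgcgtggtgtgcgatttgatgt

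Eef2k and Eef2kmt, whose products modify eEF2, had smaller differences in the same direction. The enzymes that make diphthamide on eEF2 are taken up below, and Dph2 among them had 0.33. Eef2k, the kinase that phosphorylates and inhibits eEF2, had levels of 1.39 and 1.28 in the shCM1 arrays, against 1.48 and 1.48 in the shCTL arrays. The groups did not overlap. The difference was -0.15, with an SE of 0.15 without the block and 0.096 with it (blocked limma fit, adjusted p = 0.383). Eef2kmt, which methylates eEF2, was the dimmest gene of the group, at -3.58 and -3.16 in the shCM1 arrays and -3.52 and -2.92 in the shCTL arrays. Its groups overlapped, and its difference was -0.15 (SE 0.30). Without shCM1 replicate 1 the Eef2kmt difference was 0.06, and without shCTL replicate 2 it was 0.15.

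eIF3 is the large scaffold of the small ribosomal subunit during initiation. Of its 13 subunit genes, 11 were lower within both slides and none was higher, with a median difference of -0.14 and a range from -0.36 (Eif3l) to -0.01 (Eif3i). All 13 had a mean level above 0, a class in which 43.1% of all genes were lower within both slides. Both shCM1 arrays lay below both shCTL arrays for 7 of the 13, against 10.1% of all genes and 20.9% of those with a level above 0. In the blocked limma fit 1 of the 13, Eif3l, was called lower and 0 higher, a count near the 7.3% called lower among genes with a level above 0. Without Eif3l, 10 of the other 12 were still lower within both slides, with a median of -0.13.

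Eif3l, a peripheral subunit, had levels of 4.74 and 4.53 in the shCM1 arrays, against 5.07 and 4.91 in the shCTL arrays. Both shCM1 arrays lay below both shCTL arrays, with differences of -0.33 and -0.38 within the slides. The mean difference was -0.36 (SE 0.15, n = 2 arrays per group), or 78.1% of control. Limma gave an adjusted p of 1 without a block and of 0.00820 with it. Its second probe, at 2.30 and 2.01 in the shCM1 arrays and 2.64 and 2.28 in the shCTL arrays, was also lower within both slides, with differences of -0.34 and -0.27. In the blocked limma fit Eif3l passed with normexp (-0.43, adjusted p = 0.00551), and it did not pass after quantile normalization (-0.28, adjusted p = 0.0608), after cyclic loess (-0.28, adjusted p = 0.0769) or in the authors' table (-0.28, adjusted p = 0.0707). The files place the first probe at chr7:117072692-117073563 and the second at chr7:117067876-117067935 on the plus strand of rn4. They are shown because they lie at separate places in the gene and give differences of like size.
Eif3l, probe 1: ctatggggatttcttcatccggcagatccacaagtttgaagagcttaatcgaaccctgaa
Eif3l, probe 2: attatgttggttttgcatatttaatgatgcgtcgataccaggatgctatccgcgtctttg

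Eif3b, a core subunit that holds an RNA-binding and a propeller domain, had 2.16 and 2.03 in the shCM1 arrays, against 2.34 and 2.22 in the shCTL arrays. Its groups did not overlap and its slides gave nearly the same difference, -0.18 and -0.19 (mean -0.18, SE 0.15, blocked limma fit with adjusted p = 0.236). Eif3a, the largest subunit, was singled out after its values were seen, because its slides disagreed. It had 4.22 and 3.94 in the shCM1 arrays, against 4.04 and 4.45 in the shCTL arrays. Its difference was 0.18 on slide 1 and -0.51 on slide 2, where shCTL replicate 2 was the highest of the 4 arrays, and its second probe gave 0.28 and -0.23. The mean of Eif3a was -0.16 (SE 0.20) by the first probe and 0.02 by the second. Without shCTL replicate 2 it was 0.04.

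The other eIF3 subunit genes stayed between differences of -0.20 and -0.01. Eif3h (-0.20), Eif3d (-0.19), Eif3c (-0.15), Eif3g (-0.14), Eif3m (-0.12), Eif3j (-0.11), Eif3e (-0.10), Eif3k (-0.06) and Eif3f (-0.05) were lower within both slides, and none of these 9 passed the blocked test. Eif3f was lower on slide 2 by only -0.0017, and its difference was 0.03 with quantile normalization, with cyclic loess and in the authors' table. Eif3i, with -0.03 and 0.02 within the slides, was nearest to 0. Under the same 3 scalings Eif3i had 0.08, 0.06 and 0.07. The Eif3i probe is placed on chromosome 2 in the files, whereas RefSeq has the gene on chromosome 5 (GRCr8), so its identity is uncertain.

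**Figure D3:**
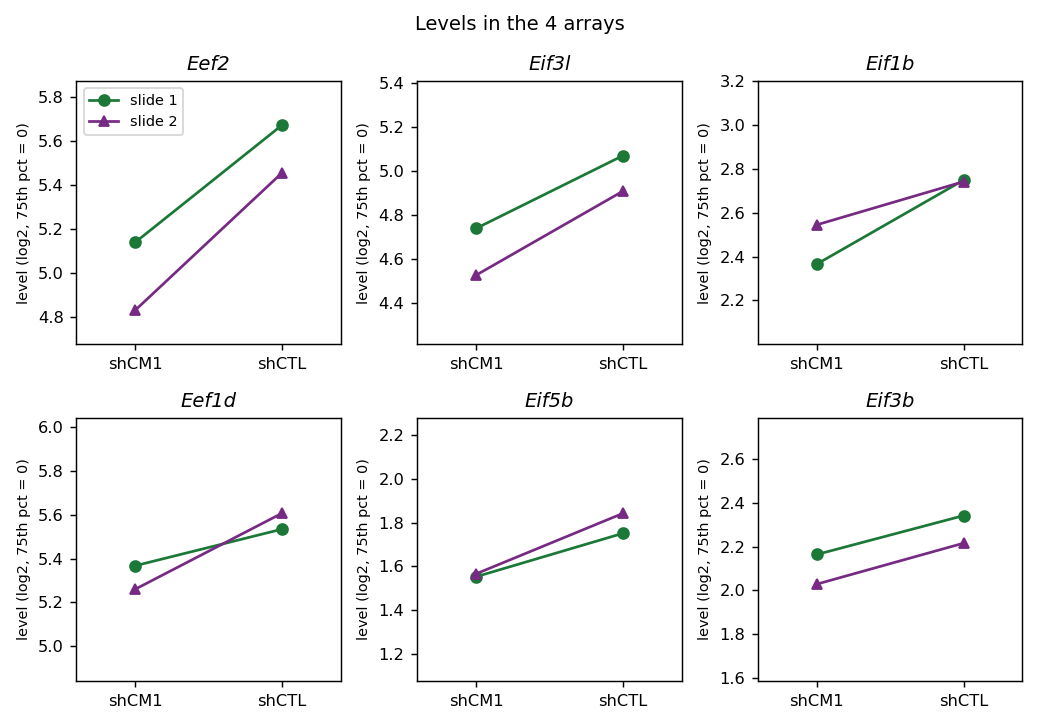
Levels (log2, the array's 75th percentile at 0) of 6 genes in the shCM1 arrays (left) and the shCTL arrays (right) of slide 1 (circles) and slide 2 (triangles), each panel with its own offset and the same height of scale. The lines of Eef2, Eif3l, Eif1b, Eef1d, Eif5b and Eif3b all run upward to shCTL on both slides, and those of Eef2 are the steepest.

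eIF1 and eIF1A keep the scanning ribosome open until a start codon is met. Of the 5 genes in this group 3 were lower within both slides, 1 was higher and 0 passed the blocked test, with a median of -0.05. Eif1b and Eif1 encode closely related proteins and lay on opposite sides of 0 by their brightest probes. The difference between the genes was not tested. Eif1b had 2.37 and 2.54 in the shCM1 arrays, against 2.75 and 2.74 in the shCTL arrays. Its groups did not overlap, and its differences were -0.38 and -0.20 within the slides, with a mean of -0.29 (SE 0.15) and 81.8% of control. In the blocked limma fit its adjusted p was 0.0583, or 0.0375 when normexp replaced the scanner's own background correction.

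Eif1 had 6.02 and 6.06 in the shCM1 arrays, against 6.0 and 5.97 in the shCTL arrays. It was the only gene of the 43 whose shCM1 arrays both lay above both shCTL arrays, by differences of 0.02 and 0.09 (mean 0.05, SE 0.11), and limma with the block gave it an adjusted p of 0.717. A second Eif1 probe was at 1.26 and 0.56 in the shCM1 arrays and 1.34 and 0.55 in the shCTL arrays, and its mean difference was -0.04. That probe lies at chr10:89256536-89256709 on the plus strand of rn4, and the Eif1b probe at chr8:125500937-125501263, also on the plus strand. They are shown because the genes are alike where both probes sit: along their best overlap of 49 bases, 39 match. The brightest Eif1 probe matched the Eif1b probe at 16 of 34 overlapping bases.
Eif1, second probe: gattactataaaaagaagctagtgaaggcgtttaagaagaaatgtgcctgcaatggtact
Eif1b: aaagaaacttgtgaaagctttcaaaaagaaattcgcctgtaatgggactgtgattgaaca

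Eif1ax, the X-linked gene of eIF1A, had 0.46 and 0.40 in the shCM1 arrays, against 0.68 and 0.55 in the shCTL arrays. Its groups did not overlap. The difference was -0.18, with an SE of 0.16 without the block and 0.102 with it (blocked limma fit, adjusted p = 0.298). A second probe gave -0.15 and -0.18 within the slides. Eif1a, an eIF1A gene on chromosome 18, had -1.20 and -1.11 in the shCM1 arrays, against -1.46 and -0.94 in the shCTL arrays. Its slides disagreed, at 0.26 and -0.16, and its mean of 0.05 (SE 0.23) turned to -0.01 under quantile normalization, cyclic loess and the authors' table alike, and to -0.21 without shCTL replicate 1. Eif1ad had a difference of -0.05.

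eIF2 carries the initiator tRNA and has an alpha, a beta and a gamma subunit. None of its 4 genes passed the blocked test, 2 were lower within both slides, and the median was -0.20. Eif2s1, the alpha subunit that the stress kinases phosphorylate, had 0.14 and 0.19 in the shCM1 arrays, against 0.21 and 0.07 in the shCTL arrays. The groups of Eif2s1 overlapped, with a difference of 0.03 (SE 0.16) that was -0.04 without shCTL replicate 2.

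Eif2s2, the beta subunit, had 4.39 and 4.21 in the shCM1 arrays, against 4.23 and 4.76 in the shCTL arrays. Its slides disagreed by this probe, at 0.16 and -0.55, with shCTL replicate 2 the highest array. By its 2 other probes it was lower within both slides, at -0.13 and -0.27 for the second and at -0.12 and -0.19 for the third. The mean was -0.19 (SE 0.21) by the brightest probe (blocked limma fit, adjusted p = 0.325), -0.20 by the second and -0.16 by the third. Without shCTL replicate 2 the brightest probe gave 0.07.

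The gamma subunit has an X-linked and a Y-linked gene in rat. Eif2s3x, now named Eif2s3 in RefSeq, had 1.22 and 0.89 in the shCM1 arrays, against 1.30 and 1.23 in the shCTL arrays. Its groups did not overlap by the brightest probe, with a difference of -0.21 (SE 0.18), while the other probes gave -0.14 and 0.04. Eif2s3y had -0.75 and -1.71 in the shCM1 arrays, against -0.60 and -1.34 in the shCTL arrays. It was lower on slide 2 than on slide 1 in both groups, and within the slides its differences were -0.16 and -0.37 (mean -0.27, SE 0.40). The mean of Eif2s3y was 0.21 without shCM1 replicate 2 and 0.10 without shCTL replicate 1.

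eIF2B, the exchange factor of eIF2, has 5 subunit genes. Eif2b3 (-0.20), Eif2b5 (-0.16) and Eif2b2 (-0.13) were lower within both slides, and the slides disagreed for Eif2b1 (0.03) and Eif2b4 (0.06). For Eif2b2 and Eif2b3 both shCM1 arrays lay below both shCTL arrays, and none of the 5 passed the blocked test. Of the factors that can deliver initiator tRNA outside the usual route, Eif2a was lower within both slides (-0.14) and Eif2d was not (0.04).

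**Figure D4:**
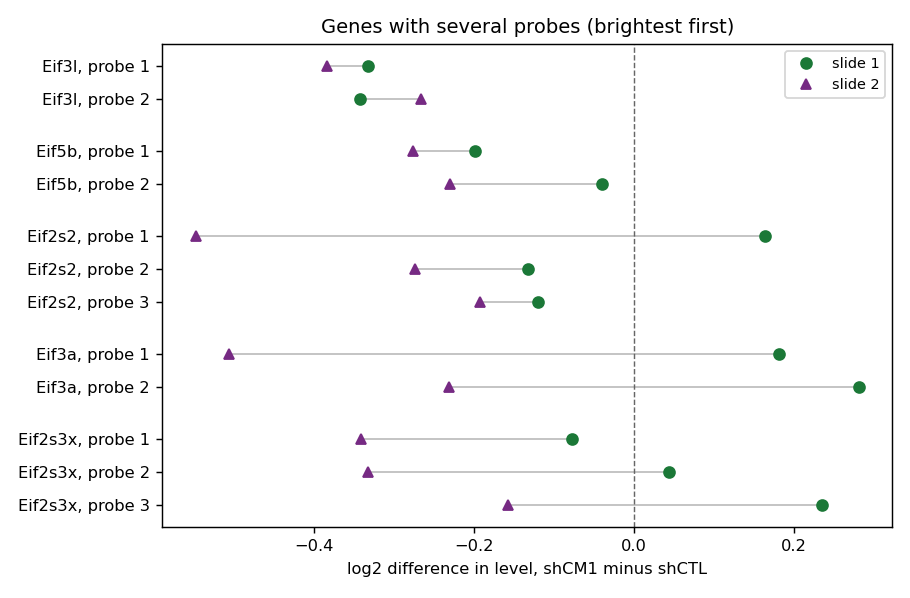
Log2 differences (shCM1 minus shCTL) within slide 1 (circles) and slide 2 (triangles) for each probe of 5 genes with more than 1 probe, the brightest probe first. Both Eif3l probes lie left of 0 on both slides, the brightest Eif2s2 probe has its slides on opposite sides of 0 while the other 2 do not, and both Eif3a probes have slide 1 right and slide 2 left of 0.

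Over all 13 genes with more than 1 probe, there were 17 further probes. The mean difference of 12 of these had the sign of the gene's brightest probe and that of 5 had the opposite sign, and the largest gap to the brightest probe was 0.25.

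eIF5, eIF5B, eIF5A and eIF6 act around the joining of the ribosomal subunits or later. Of their 5 genes 2 were lower within both slides, 1 was higher and 0 passed the blocked test, with a median of -0.07. Eif5b, the GTPase that joins the ribosomal subunits, had 1.55 and 1.57 in the shCM1 arrays, against 1.75 and 1.84 in the shCTL arrays. Its groups did not overlap, with differences of -0.20 and -0.28 within the slides (mean -0.24, SE 0.15, blocked limma fit with adjusted p = 0.135). The second Eif5b probe gave -0.04 and -0.23. Eif5, the GTPase-activating protein of eIF2, had a difference below 0.01, and Eif6, which keeps free large subunits from joining, had -0.07. The Eif6 probe is placed on chromosome 14 in the files, whereas RefSeq has the gene on chromosome 3 (GRCr8), so its identity is uncertain too. The Eif6 difference was 0.0006 with quantile normalization, -0.02 with cyclic loess and 0.0035 in the authors' table.

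eIF5A is the factor that carries hypusine and helps the ribosome through difficult stretches of sequence. Eif5a had 4.78 and 4.59 in the shCM1 arrays, against 4.99 and 4.54 in the shCTL arrays. Its groups overlapped, with a difference of -0.08 (SE 0.19) that was 0.01 after quantile normalization, 0.14 without shCTL replicate 1 and 0.01 without shCM1 replicate 2. Its paralog Eif5a2 had -0.31 and -0.83 in the shCM1 arrays, against -0.54 and -0.85 in the shCTL arrays. Eif5a2 was higher within both slides, by 0.23 and 0.02 (mean 0.13, SE 0.24), with overlapping groups (blocked limma fit, adjusted p = 0.545). Its other probes gave 0.25 and -0.01, and the mean was -0.13 without shCM1 replicate 1 and -0.03 without shCTL replicate 2.

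eEF1A brings aminoacyl-tRNA to the ribosome. Eef1a1, its widely expressed gene, had 6.08 and 5.90 in the shCM1 arrays, against 6.26 and 5.81 in the shCTL arrays. Its slides disagreed, at -0.18 and 0.10, and its mean of -0.04 (SE 0.19) was 0.02 after quantile normalization, 0.05 under cyclic loess and 0.01 in the authors' table. Without shCTL replicate 1 it was 0.19, and without shCM1 replicate 2 it was 0.05. RefSeq lists near-identical copies of Eef1a1 in rat, so that its probe may read several of them. Eef1a2, the form of mature neurons and muscle, had 4.24 and 3.86 in the shCM1 arrays, against 4.47 and 4.03 in the shCTL arrays. It was lower within both slides, at -0.24 and -0.17, while its groups overlapped (mean -0.20, SE 0.22). In the blocked limma fit Eef1a2 had an adjusted p of 0.137, and its difference was 0.02 without shCTL replicate 1.

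The eEF1B complex reloads eEF1A with GTP, and 3 of the 4 genes grouped with it here by name were lower within both slides. Eef1d, the delta subunit, was singled out after its values were seen, because it lay nearest to the threshold among the genes that did not pass. It had 5.37 and 5.26 in the shCM1 arrays, against 5.53 and 5.61 in the shCTL arrays. Its groups did not overlap, and it was lower by differences of -0.17 and -0.35 (mean -0.26, SE 0.12), or 83.7% of control (blocked limma fit, adjusted p = 0.0532). Eef1b2, the alpha subunit with exchange activity, had -0.13, and Eef1e1, a small protein of the tRNA synthetase complex named for its likeness to eEF1B, had -0.02. Eef1e1, counted among the 3 lower genes, had 0.03 with quantile normalization, with cyclic loess and in the authors' table. Eef1g, the gamma subunit, had the brightest probe of the group and a difference of 0.01, with 0.05 and -0.02 within the slides.

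**Figure D5:**
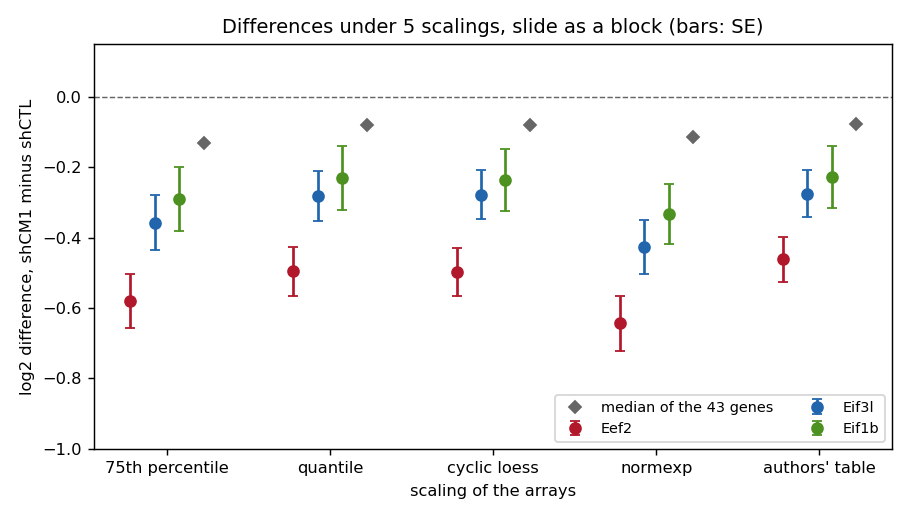
Log2 differences (shCM1 minus shCTL) of Eef2, Eif3l and Eif1b with SE bars from the limma fit with the slide as a block, and the median of the 43 translation factor genes, under 5 scalings of the arrays. Eef2 stays between -0.64 and -0.46, Eif3l between -0.43 and -0.28, and the median between -0.13 and -0.08.

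Many mRNAs of the translation machinery are known to begin with a C and a run of pyrimidines, the terminal oligopyrimidine motif, through which mTOR controls their translation. RefSeq promoter sequences (GRCr8) were matched for 40 of the 43 genes, and the window from 20 bases before to 20 bases after the annotated start was searched on the gene's strand for a C followed by at least 6 further C or T. Such a run was found in 14 of the 40 windows (35%), against 4886 of all 27457 promoters (17.8%). On the other strand 2 of the 40 had one, against 19.8% of all promoters. The 14 genes with a run had a median difference of -0.09, with 10 lower within both slides. The 26 without a run had -0.14, with 16 lower within both slides. A run in the window is a match of letters and does not show where transcripts start. The windows below are those of the 2 genes that passed the blocked test, of Eif1b, and of 3 further genes with a run (an eEF1A gene, an eEF1B subunit and an eIF3 subunit), with the run in capitals. They lie at chr7:9189219-9189258 (minus strand) for Eef2, chr7:112532994-112533033 (plus) for Eif3l, chr8:129081138-129081177 (plus) for Eif1b, chr8:88225050-88225089 (minus) for Eef1a1, chr9:72074071-72074110 (plus) for Eef1b2 and chr1:172369042-172369081 (plus) for Eif3f.
Eef2: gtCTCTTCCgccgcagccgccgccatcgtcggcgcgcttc
Eif3l: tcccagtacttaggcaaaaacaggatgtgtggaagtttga
Eif1b: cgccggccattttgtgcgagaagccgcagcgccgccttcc
Eef1a1: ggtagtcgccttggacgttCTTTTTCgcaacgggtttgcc
Eef1b2: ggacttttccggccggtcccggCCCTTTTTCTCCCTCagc
Eif3f: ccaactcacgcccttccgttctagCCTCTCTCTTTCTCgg
Of the 2 genes that passed the blocked test, the Eef2 window holds a run and the Eif3l window does not. The windows of Eef1a1, Eef1b2 and Eif3f hold runs as well, and their differences were -0.04, -0.13 and -0.05. These 3 were chosen with their values known. Among the other genes with a run, differences reached -0.27 (Eif2s3y), -0.21 (Eif2s3x) and -0.19 (Eif3d) on the lower side and 0.05 (Eif1) on the higher side.

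The enzymes and regulators around these factors gave no call in the blocked limma fit. Of 8 measured genes for the eIF2 kinases and phosphatase and their regulators, 5 were higher and 2 lower within both slides, with a median of 0.11. Over all genes 44.0% were higher and 22.6% lower within both slides, with a median of 0.08. Impact, an inhibitor of the kinase GCN2, had a difference of 0.26 (blocked limma fit, adjusted p = 0.197). Eif2ak2, the double-stranded RNA kinase PKR, had -0.20 (blocked limma fit, adjusted p = 0.357). Of 6 measured enzymes that make hypusine on eIF5A or diphthamide on eEF2, 1 was higher and 1 lower within both slides. Dph2, of the first step of diphthamide synthesis, had 0.33 (0.52 and 0.13 within the slides), and Dhps, the deoxyhypusine synthase, had 0.25 with slides that disagreed.

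Termination and recycling factors lay on the same side as the initiation and elongation factors. Their median was -0.14: 6 of the 8 genes were lower on both slides, 0 were higher on both, and 0 passed the blocked test. Of all genes with a mean level above 0, 43.1% were lower on both slides, with a median of -0.04. Etf1, the release factor that reads stop codons, had -0.17 and Mcts1, a recycling factor, had -0.14. Of 10 measured genes in a list for mTOR and S6 kinase signalling, 8 were higher on both slides and 1 lower, the median was 0.13, and 0 passed the test. All genes had a median of 0.08, with 44.0% of them higher on both slides. Of those with a mean level above 0, 25.2% were higher on both slides. Mean levels in this list ran from -4.28 to 3.43. Tsc1, which restrains mTOR, had 0.26 and Rps6ka1, a ribosomal S6 kinase, 0.17. The Pdk1 entry of that list, counted among the 8 higher genes, is a pyruvate dehydrogenase kinase and not a member of the mTOR pathway. Of 6 measured mitochondrial translation factors 3 were lower within both slides, against 22.6% of all genes and 43.1% of those with a mean level above 0. Tufm, the mitochondrial counterpart of eEF1A, had -0.26 (blocked limma fit, adjusted p = 0.152) and Mrrf, which recycles mitochondrial ribosomes, -0.13.

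Markers of cell types also moved between the groups. Over all genes 22.6% were lower and 44.0% higher within both slides. The blocked limma fit called 3.05% of them lower and 3.70% higher. Of genes with a mean level above 0, 43.1% were lower within both slides and 7.3% were called lower. Of the 21752 genes at 0 or below, 11171 were higher within both slides and 886 were called higher. All microglial, endothelial and fibroblast markers had mean levels below 0. All 8 neuronal markers were measured, 6 of them lower within both slides, and Gap43 (-0.45) and Tubb3 (-0.37) were called lower in the blocked limma fit (adjusted p = 8.95e-04 and 0.00653). The summed linear level of the 8, in multiples of the array's 75th percentile, was 321 in shCM1 against 360 in shCTL on slide 1, and 244 against 289 on slide 2. It was lower in shCM1 on both slides, while the ranges over slides overlap. Of 9 measured microglial markers 8 were higher within both slides and 6 were called higher, with sums of 3.42 in shCM1 against 2.10 in shCTL on slide 1 and 2.55 against 1.82 on slide 2. All 5 markers of cycling cells were lower within both slides and 3 were called lower, with sums of 14.7 in shCM1 against 19.96 in shCTL on slide 1 and 17.9 against 20.4 on slide 2. Of 7 astrocyte markers 0 were called. Their sums were 125 in shCM1 against 114 in shCTL on slide 1, and near 120 in both groups on slide 2. Of 7 oligodendrocyte lineage markers 2 were called higher and 1 lower, with sums of 44.3 in shCM1 against 49.3 in shCTL on slide 1 and 54.1 against 55.3 on slide 2. Of 7 endothelial and fibroblast markers 2 were called higher, with sums of 1.77 in shCM1 against 1.56 in shCTL on slide 1 and 2.09 against 1.59 on slide 2. The part of these marker levels in the differences of the translation factor genes was not tested.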

How the data were processed

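The deposited scanner files give linear spot intensity, which Agilent Feature Extraction 10.7.3.1 had background-corrected per the file headers. An array carried 43379 gene spots for 41012 probes, of which 84.0% to 90.4% were well above background. None of the gene spots was saturated, and the 86 to 98 outlier spots per array were left out. Precision is limited by the number of arrays. The authors' deposited value table holds linear intensity too, by a normalization not given in the sources used here. Its columns followed their own arrays (correlation of log2 values from 0.9998 upward), and it was used as an alternative.

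The mean over the spots of a probe was put on the log2 scale and set relative to the array's 75th percentile of gene probes. The filter kept 36700 probes, and the brightest probe stood for a gene name. All 30363 genes entered limma 3.58.1 under R 4.3.3 (lmFit, eBayes with an intensity trend, two-sided), and p was adjusted by Benjamini-Hochberg with a threshold of 0.05. The values rest on a fit with no block, and a second fit took the slide as a block. The file headers show that the replicate number also marks the slide and the scan. Across genes, arrays with the same number deviated from their group means with a correlation of 0.713, and whether a slide equals an experiment is not stated in the labels.

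Genes given in full were those past either fit, those with the 5 largest and 5 lowest smaller within-slide differences of 1 sign (of which 2 were higher), the paralog pairs, Eef2k and the eIF2 subunits. Each pathway list names the 2 genes with the smallest blocked p. The members and lists were chosen with earlier results of these data known. RefSeq (GRCr8) matched 40 of the 43 genes by accession and 3 by symbol. The alternatives were quantile and cyclic loess scaling, normexp with offset 50, the authors' table, other filters, other probes and each array left out.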

Additional observations from a re-analysis of the deposited data

How the results depend on the processing

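With the replicate block (the slide), 1123 genes were called higher and 925 lower in shCM1, against 0 each without it, and 2 of the 43 translation factor genes were called lower. Under other scalings the blocked fit called, higher first, 366 and 581 genes with quantile normalization, 274 and 467 with cyclic loess, 618 and 796 with normexp, and 249 and 439 in the authors' table. In that order 1, 1, 3 and 1 of the 43 genes were called lower. Without the intensity trend the blocked fit called 0 of all genes. Leaving out 1 array in turn without the block gave 0 to 1 genes higher, 0 lower and none of the 43. Such fits cannot keep the block or compare both slides, so those counts have no such value. The median of the 43 genes was -0.0797 with quantile normalization, -0.0807 with cyclic loess and -0.0782 in the authors' table, with or without the replicate block, and ran from -0.164 to -0.0454 with 1 array left out. Genes higher within both slides numbered 5 under each of these 3 scalings. Differences turned sign for Eef1a1 (0.0211 with quantile normalization, 0.0481 with cyclic loess, 0.0144 in the authors' table), Eif1a (-0.0100, -0.0052 and -0.0114 in the same order) and Eif5a (0.0138 with quantile normalization, 0.0045 in the authors' table), each with or without the block. By another probe they turned for Eif1 (-0.0358), Eif2s3x (0.0392), Eif3a (0.0248) and Eif5a2 (-0.0101). With 1 array left out, differences ran across 0 for Eef1a1 (-0.2709 to 0.1861), Eef1a2 (-0.4262 to 0.0195), Eif1a (-0.2096 to 0.3087), Eif2s1 (-0.0438 to 0.0995), Eif2s2 (-0.4582 to 0.0741), Eif2s3y (-0.7452 to 0.2119), Eif3a (-0.3670 to 0.0421), Eif5a (-0.3075 to 0.1399) and Eif5a2 (-0.1323 to 0.3854). None of these genes passed a test under any setting, and the cause of the changes was not tested. Of the 24 translation factor genes not given in full, 11 turned sign under at least 1 setting, in 44 of 384 values, and 0 values passed. Eef2, Eif3l, Eif1b, Eef1d, Eif5b, Eif3b, Eif1ax and Eef2k stayed lower in shCM1 under every setting run. The mean over all probes of a gene left 29 of the 43 lower and 2 higher within both slides. All 60 probes were well above background, and each group had 2 arrays. Setting the 43 genes beside genes of like signal was chosen after seeing the data.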
